A study of Homo sapiens with 7 samples.

Results

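SETD7-only peaks on chromosomes 1, 3, 7, 8 and 12 are peaks of the SETD7 chromatin immunoprecipitation sequencing (ChIP-seq) list of vehicle-treated 22Rv1 cells (CWR22-Rv1 in the labels) that share no base with any peak of the 6 FOXA1 lists of the series. They numbered 14682, of 17815 SETD7 peaks on these chromosomes and 25526 SETD7 peaks in all, and came to 8482 when the rule was applied to the higher-scoring 50% of every list. They were chosen by measured values, the positions of the SETD7 and FOXA1 peaks, and the chromosomes were selected on the density of the SETD7 list. Their number, density, score, width and spacing are therefore descriptions, and no test was made on them. The series has 7 libraries, 1 per group, so the spread between replicates is unknown. The 6 FOXA1 lists come from 22Rv1 cells with a hairpin against SETD7 (shSETD7), 22Rv1 cells with a control hairpin (shCTL), vehicle-treated 22Rv1 cells, and LNCaP cells treated for 4 hours with GSK2879552 plus PFI-2, with GSK2879552 alone, or with DMSO; the titles shorten the compounds to GSK and PFI. GSK2879552 inhibits the histone demethylase LSD1 and PFI-2 inhibits SETD7. Both lines are established human prostate cancer lines. Whether the hairpin lines were single clones or pools is not given in the sources used here.

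SETD7 is a lysine methyltransferase that adds a single methyl group to histone H3 and to a number of non-histone proteins. FOXA1 is a forkhead transcription factor that opens chromatin at enhancers of prostate luminal cells and binds DNA directly. Prostate cancer lines often carry gained chromosome segments, and a segment with more copies gives more background reads in any ChIP library.

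The SETD7-only peaks fell into 3 levels of density along the chromosomes, with the long arm of chromosome 1 at the top. Of the SETD7 peaks on the 5 chromosomes, 82.4% were SETD7-only (95% Wilson interval 81.8 to 83.0, counting error only, as for all intervals here), against 77.9% on the other chromosomes (76.9 to 78.8) and 81% over all chromosomes. The rule fixes these shares, and nothing is read from them. Chromosome 1 had the lowest share of the 5, at 77.8% of 5272 peaks, and chromosomes 3, 7, 8 and 12 had between 83.6% and 84.8%. The 5 chromosomes held 71.0% of all 20687 SETD7-only peaks (70.3 to 71.6), close to their 69.8% of all 25526 SETD7 peaks (69.2 to 70.4).

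Arms were split at the longest stretch of each chromosome with no peak in any of the 7 lists. These gaps were 21.1 Mb long on chromosome 1 and at most 3.03 Mb on the other 4. The long arm of chromosome 1 held 3700 SETD7-only peaks, or 34.7 per Mb. Its short arm held 403, or 3.32 per Mb, so the density of the long arm was 10.5 times that of the short arm (exact Poisson interval 9.43 to 11.6, counting error only), and 15.9 times in the higher-scoring 50% of SETD7-only peaks. On the other chromosomes the split is the longest gap too, which need not be the centromere where a chromosome has no mapped short arm. The short arm of chromosome 1 lay within the range of the 33 arms of other chromosomes that spanned at least 10 Mb, which had between 0.377 and 4.20 SETD7-only peaks per Mb and a median of 3.04. The lowest value was on chromosome X, and the 30 autosomal arms among them ran from 1.82 to 4.20. Although chromosome 1 was chosen as a dense chromosome, its density came from 1 arm.

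The other 8 arms formed a level between these. On chromosome 3 the long arm held 18.4 SETD7-only peaks per Mb and the short arm 16.5. On chromosome 7 the long arm held 15.9 per Mb and the short arm 16.8. On chromosome 8 the values were 17.6 per Mb for the long arm and 16.5 for the short arm, and on chromosome 12 they were 15.6 for the long arm and 19.1 for the short arm. No other arm of 10 Mb or more came near this level. Stretches under 10 Mb beside the gaps of chromosomes 15, 21, 22 and Y, not counted as arms here, held 12 to 106 SETD7-only peaks at 28.5 to 59.8 per Mb. A stretch of 8.69 Mb on chromosome 14, also not counted, held 24 at 2.76 per Mb. The 8 arms lay between 5.11 and 6.29 times the median of the other arms, and the long arm of chromosome 1 lay at 11.4 times that median. Within a chromosome the arms of this level differed little: the ratio of the long to the short arm was 1.12 on chromosome 3 (1.04 to 1.20), 0.9495 on chromosome 7 (0.876 to 1.03), 1.07 on chromosome 8 (0.979 to 1.17) and 0.813 on chromosome 12 (0.741 to 0.892).

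**Figure D1:**
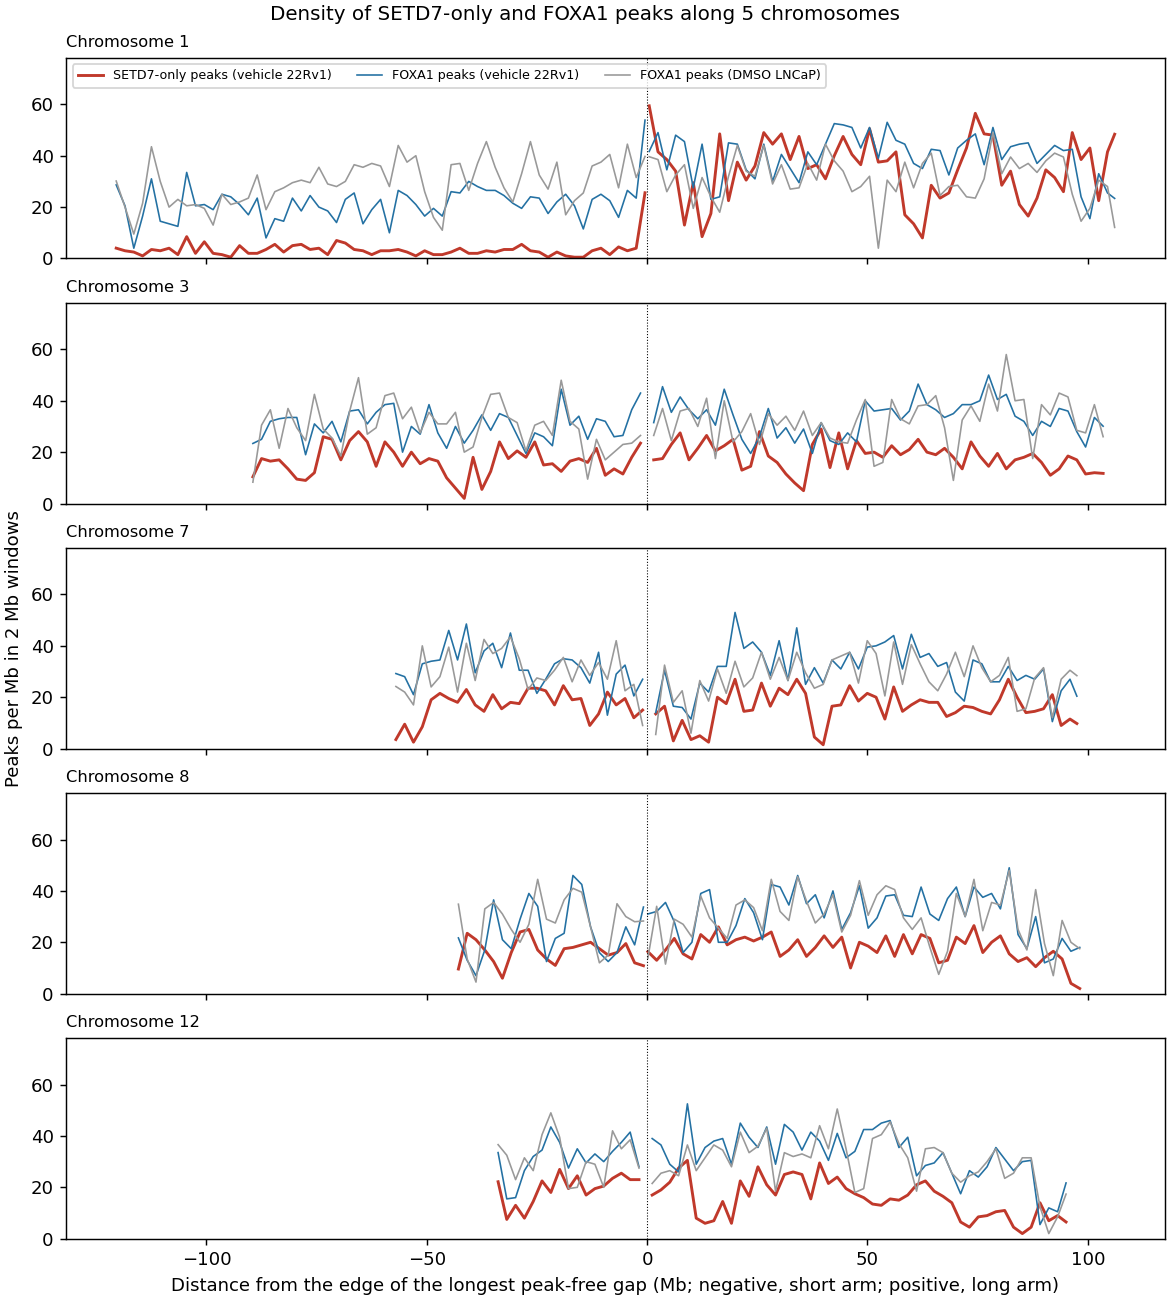
SETD7-only peaks of vehicle 22Rv1 (red), FOXA1 peaks of vehicle 22Rv1 (blue) and FOXA1 peaks of DMSO LNCaP (grey) per Mb in windows of 2 Mb, against the distance in Mb from the edge of the longest peak-free gap, for each of the 5 chromosomes. SETD7-only density is near 3 per Mb over most of the short arm of chromosome 1. It is higher in the last window before the gap and over most of the long arm. On chromosomes 3, 7, 8 and 12 both arms lie at a similar level.

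On chromosome 1 density was low up to the last Mb before the gap and high in the 5 Mb after it. In the 5 Mb after the gap (from 142535713 to 147535712, build hg19) there were 236 SETD7-only peaks, or 47.2 per Mb. In the 5 Mb before it (from 116485513 to 121485512) there were 51, or 10.2 per Mb. Of these 51, 37 lay in the last Mb before the gap, so the rest of that stretch was at the low level. The same stretches held 207 and 169 FOXA1 peaks of vehicle 22Rv1, and 169 and 194 FOXA1 peaks of DMSO LNCaP. From 120 Mb to the gap FOXA1 peaks were dense as well, at 53.9 per Mb in vehicle 22Rv1 and 39.7 in DMSO LNCaP. Over the whole short arm these values were 21.2 and 29.3. Whether the 37 peaks belong to the level of the long arm or to a local rise beside the gap was not tested. On chromosomes 3, 7, 8 and 12 the 5 Mb after the gap held 93, 74, 74 and 97 SETD7-only peaks, and the 5 Mb before it held 93, 75, 73 and 107. No step was thus seen at the gap of these 4 chromosomes.

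Density was then described in windows of 10 Mb. Of the windows, 87 had at least 50 peaks in the vehicle 22Rv1 and DMSO LNCaP FOXA1 lists together and at least 50% of their length outside the gap. The 5 densest windows were all on the long arm of chromosome 1. They were the windows starting at 170 Mb (428 SETD7-only peaks, 42.8 per Mb), at 140 Mb (315 peaks, 42.2 per Mb of the part after the gap), at 210 Mb (416 peaks), at 190 Mb (408 peaks) and at 180 Mb (391 peaks). The 5 sparsest were all on its short arm, from 1.5 per Mb in the window starting at 100 Mb (15 peaks) to 2.80 per Mb in the first window (28 peaks). Between them were the windows starting at 60 Mb (26 peaks), 70 Mb (25 peaks) and 80 Mb (26 peaks). The long arm of chromosome 1 was not even: the window starting at 200 Mb held 181 peaks, or 18.1 per Mb, and the next one held 416.

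Outside the short arm of chromosome 1, the sparsest windows lay mostly toward chromosome ends. They were chromosome 12 from 120 Mb (6.4 per Mb) and from 110 Mb (8.7 per Mb), chromosome 8 from 140 Mb (6.51 per Mb), the first 10 Mb of chromosome 7 (8.61 per Mb) and chromosome 7 from 70 Mb (9.7 per Mb). FOXA1 peaks of vehicle 22Rv1 in these 5 windows numbered 209, 290, 126, 290 and 246, in that order. The last 10 Mb covered by peaks held 8.1 SETD7-only peaks per Mb on chromosome 12 and 10 on chromosome 8, against 17.6 and 17.9 per Mb between the outer 10 Mb at each end. Chromosome 3 showed less of this, with 15 per Mb in the first and 14.2 in the last 10 Mb, and 17.9 between them. On chromosome 1 the last 10 Mb held 38.9 per Mb, so this end was not sparse. The first 10 Mb of chromosome 8 held 16.7 per Mb, close to the 17.9 between its ends. The first 10 Mb of chromosome 12 held 13 per Mb, and the last 10 Mb of chromosome 7 held 13.4. FOXA1 peaks were sparse at some of these ends as well. In the last 10 Mb of chromosome 12 vehicle 22Rv1 had 15.9 per Mb and DMSO LNCaP 14.4, against 34.7 and 31.6 between the ends. In the last 10 Mb of chromosome 8 they had 17.5 and 18.8, against 30.8 and 30.3. In the first 10 Mb of chromosome 7 they fell less, at 29 and 25.4 against 31.9 and 29.2. The first 10 Mb of chromosome 8 held 19 and 24.3.

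In windows of 2 Mb, the 10 lowest points relative to their arm within the dense arms held 23 to 70 FOXA1 peaks of vehicle 22Rv1, in each case fewer than the median window of their arm. Outside the short arm of chromosome 1 there were 360 such windows of nearly full length, and 35 of them (9.72%) held under 50% of their arm's median SETD7-only density. The lowest was chromosome 7 from 100 to 102 Mb, with 3 SETD7-only peaks and 5 SETD7 peaks in all. That window held 51 FOXA1 peaks of vehicle 22Rv1 and 50 of DMSO LNCaP. Chromosome 3 from 48 to 50 Mb held 4 SETD7-only peaks and 47 and 40 FOXA1 peaks of the same lists, and chromosome 12 from 122 to 124 Mb held 4 with 60 and 63. Chromosome 7 from 70 to 72 Mb, with 7 SETD7-only peaks, was low in FOXA1 as well, with 23 and 12 peaks, where the arm's median for vehicle 22Rv1 was 62 per window. The opposite was also found. Chromosome 8 from 4 to 6 Mb held 42 SETD7-only peaks but 14 vehicle 22Rv1 and 9 DMSO LNCaP FOXA1 peaks, and chromosome 7 from 152 to 154 Mb held 42 with 21 and 24. These windows were picked for their values and are descriptions. No hg19 gene annotation was used here, so genes at these positions are not given.

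The longest stretches without a SETD7-only peak also held FOXA1 peaks. On the short arm of chromosome 1 the longest ran from 100734142 to 103244978, or 2511 kb, and held 68 FOXA1 peaks of vehicle 22Rv1 and 66 of DMSO LNCaP. On the long arm it ran from 156075171 to 156957788, or 883 kb, with 26 FOXA1 peaks in each of these lists. On the long arms of chromosomes 8 and 12 the longest were 1490 kb and 1349 kb.

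Whether SETD7-only density followed the ratio of vehicle 22Rv1 to DMSO LNCaP FOXA1 peaks was examined because extra DNA copies in 22Rv1 would be expected to raise both. Across arms the 3 levels were in the same order in both measures. The long arm of chromosome 1 had 39.7 FOXA1 peaks per Mb in vehicle 22Rv1 and 31.2 in DMSO LNCaP, a log2 ratio of 0.35. Its short arm had 21.2 in vehicle 22Rv1 and 29.3 in DMSO LNCaP, a log2 ratio of −0.47. The 8 arms of chromosomes 3, 7, 8 and 12 had log2 ratios between −0.22 and 0.14 with a median of 0.06, and the 33 arms of other chromosomes between −0.91 and −0.03 with a median of −0.52. The lowest ratio was on chromosome X. DMSO LNCaP FOXA1 peaks differed less between the levels, with 27.9 to 32.3 per Mb on the 8 arms. The 33 arms of other chromosomes had a median of 27.2, with a range of 14.3 (on chromosome X) to 32.2. The 22Rv1 list thus carried most of the difference between the levels. The depth of both libraries is unknown, and its part in the ratio of each arm was not tested. The sizes differed: against the median of the other arms, the FOXA1 ratio was 1.82 times on the long arm of chromosome 1 and had a median of 1.49 times on the 8 arms, where SETD7-only density was 11.4 times and had a median of 5.46 times. The first measure is a ratio between lists and the second a density within the SETD7 list, so their sizes are not directly comparable.

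**Figure D2:**
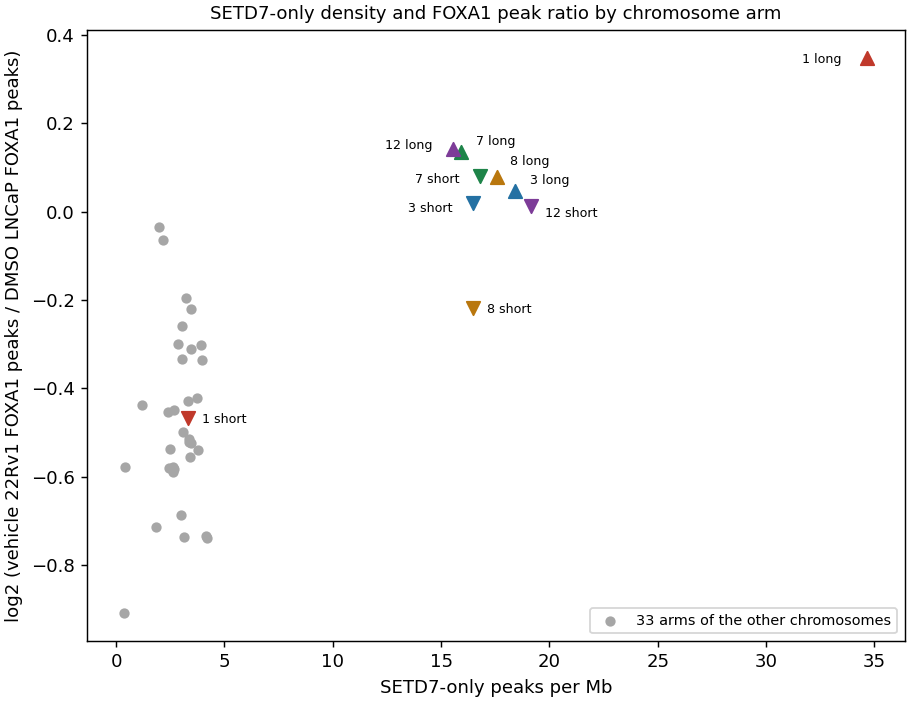
Each point is a chromosome arm, with SETD7-only peaks per Mb on the x axis and the log2 ratio of vehicle 22Rv1 to DMSO LNCaP FOXA1 peak numbers on the y axis. Coloured triangles are the 10 arms of chromosomes 1, 3, 7, 8 and 12, and grey points the 33 arms of other chromosomes spanning at least 10 Mb. The long arm of chromosome 1 is highest in both, its short arm lies among the grey points, and the short arm of chromosome 8 has a low ratio for its density.

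Within the middle level the order was not shared. The short arm of chromosome 12 had the highest SETD7-only density of the 8 arms (19.1 per Mb) and a log2 ratio of 0.01, while the long arm of chromosome 12 had the lowest density (15.6 per Mb) and the highest ratio (0.14). Over these 8 arms Pearson's r between density and log2 ratio was −0.14 and Spearman's rho −0.50, as a description, since the 2 arms of a chromosome are not independent. The short arm of chromosome 8 stood apart, with 16.5 SETD7-only peaks per Mb at a log2 ratio of −0.22, and 3 arms of other chromosomes had ratios at least as high. Both arms of chromosome 19 were among these, with 1.99 SETD7-only peaks per Mb on the short arm and 2.17 on the long arm. DMSO LNCaP FOXA1 peaks were sparse there, at 19.5 and 21.2 per Mb, with vehicle 22Rv1 at 19.0 and 20.2.

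The other 22Rv1 FOXA1 lists gave the same top arm, but the order of the levels did not hold in them. On the long arm of chromosome 1 the log2 ratio to DMSO LNCaP was 0.67 for shSETD7 and 0.74 for shCTL, the highest of the 10 arms in both. Chromosome 19, a sparse chromosome, was also high in both lists: its short and long arms had 0.48 and 0.40 for shSETD7, above all 8 arms of chromosomes 3, 7, 8 and 12 (−0.67 to 0.14), and 0.65 and 0.51 for shCTL, where the 8 arms ran from −0.12 to 0.51. On the short arm of chromosome 8 it was −0.67 for shSETD7, against a median of 0.08 over the 8 arms. On the short arm of chromosome 3 it was −0.12 for shCTL, against a median of 0.40. SETD7-only density was 16.5 per Mb on both of these arms, inside the range of the other arms of the level. DNA copy number was not measured in these data. Its part in the density was not tested.

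Over the 87 windows of 10 Mb, Pearson's r between log2 SETD7-only density and the log2 ratio of vehicle 22Rv1 to DMSO LNCaP FOXA1 peaks was 0.69 and Spearman's rho 0.61. With shCTL in place of vehicle r was 0.44. These are descriptions, because windows of a chromosome are not independent. The relation rested largely on chromosome 1: over the 64 windows of the other 4 chromosomes r was 0.21 and rho 0.31. With the mean of each chromosome subtracted r was 0.69 over the 87 windows, and with the mean of each arm subtracted it was 0.19 (rho 0.23). Within the arms that had at least 6 windows, r was 0.55 on the long arm of chromosome 3 (11 windows), 0.43 on the long arm of chromosome 12 (9 windows), 0.40 on the long arm of chromosome 8 (10 windows), 0.28 on the long arm of chromosome 1 (11 windows), 0.25 on the long arm of chromosome 7 (10 windows), −0.07 on the short arm of chromosome 3 (9 windows), −0.17 on the short arm of chromosome 1 (12 windows) and −0.22 on the short arm of chromosome 7 (6 windows). The pooled value thus came mainly from the difference between the arms of chromosome 1. Within arms r was positive on all 5 long arms and negative on the 3 short arms that had enough windows. With FOXA1 peak density in place of the ratio, r without chromosome 1 was 0.53 for vehicle 22Rv1 and 0.44 for DMSO LNCaP. Over all 87 windows these values were 0.73 and 0.20, in that order.

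**Figure D3:**
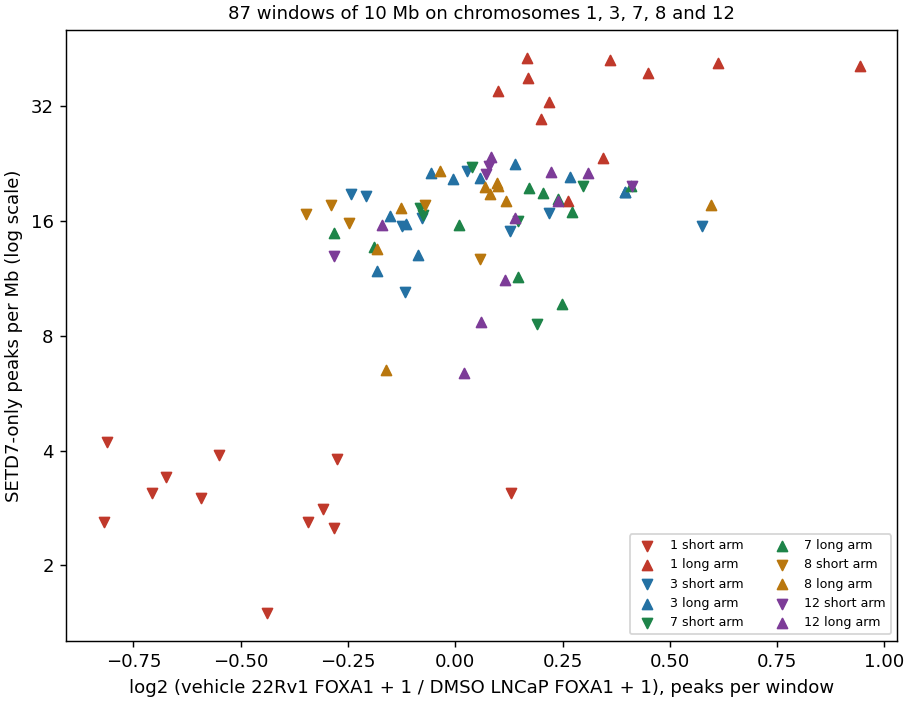
Each point is a window of 10 Mb on chromosomes 1, 3, 7, 8 or 12, with the log2 ratio of vehicle 22Rv1 to DMSO LNCaP FOXA1 peaks (pseudocount of 1 peak) on the x axis and SETD7-only peaks per Mb on a log y axis; colour marks the chromosome and the direction of the triangle the arm. Windows of the short arm of chromosome 1 lie at 1.5 to 4.2 per Mb and those of its long arm at 18.1 to 42.8 per Mb, and the windows of the other 4 chromosomes run from 6.4 to 23.5 per Mb, overlapping the lower windows of the long arm.

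Single windows showed the looseness. The highest ratio was in chromosome 1 from 190 Mb, with 464 FOXA1 peaks in vehicle 22Rv1 and 241 in DMSO LNCaP (log2 ratio 0.94) and 40.8 SETD7-only peaks per Mb. The window from 170 Mb was denser, at 42.8 per Mb, with a log2 ratio of 0.17. Chromosome 8 from 110 Mb had a log2 ratio of 0.60 and 17.6 SETD7-only peaks per Mb, and chromosome 3 from 80 Mb had 0.57 and 15.5. In both windows DMSO LNCaP FOXA1 peaks were sparse, at 22.2 and 22 per Mb, against 29.6 and 29.99 over their arms. Vehicle 22Rv1 was nearer its arm values, at 33.6 and 32.8 per Mb against 31.2 and 30.4. On chromosome 1 from 190 Mb, DMSO LNCaP had 24.1 per Mb against 31.2 over its arm, and vehicle 22Rv1 46.4 against 39.7. In the 360 windows of 2 Mb, with arm means subtracted, r of SETD7-only density was 0.07 with the ratio, 0.30 with vehicle 22Rv1 FOXA1 density and 0.17 with DMSO LNCaP FOXA1 density. It was 0.10 with shSETD7 and 0.09 with shCTL FOXA1 density, both below the DMSO LNCaP value. With the other LNCaP lists it was 0.17 for GSK2879552 plus PFI-2 and 0.08 for GSK2879552 alone. The rule removes SETD7 peaks where FOXA1 peaks lie. With all SETD7 peaks counted r was 0.34 with vehicle 22Rv1 and 0.17 with DMSO LNCaP FOXA1 density. That set adds back the peaks on FOXA1 peaks, so it cannot show the rule's part in r, which was not tested.

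Scores of the SETD7-only peaks were low and took few values. The score is the authors' own whole number per peak, and its definition is not given. The median was 28 (quartiles 21 and 37, range 13 to 1176) on the 5 chromosomes, against 25 (20 and 33) for SETD7-only peaks on the other chromosomes. The SETD7 peaks of the same 5 chromosomes that overlapped a FOXA1 peak had a median of 31 (24 and 44). On the other chromosomes such overlapping peaks had a median of 77 (32 and 258), so the small difference held on the 5 chromosomes only. The floor of the list was 13. Only 135 distinct scores occurred among the 14682 peaks, and the 7 commonest (25, 21, 31, 17, 37, 43 and 51) made up 57.3% of them (56.5 to 58.1). This was not particular to them. The same 7 scores made up 65.0% of SETD7-only peaks on the other chromosomes. They made up 51.5% of SETD7 peaks with a FOXA1 overlap on the 5 chromosomes. By arm the median was 31 on the long arm of chromosome 1 and between 25 and 27 on the other 9 arms.

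On chromosomes 3, 7, 8 and 12 the higher density was in peaks with scores under 100. Relative to the other chromosomes, the 8 arms of chromosomes 3, 7, 8 and 12 held 4.38 times as many SETD7-only peaks per Mb at scores of 13 to 24, 6.87 times at 25 to 36, 7.81 times at 37 to 50 and 6.61 times at 51 to 99 (5.90 to 7.43). At scores of 100 and over they held 49 peaks in 625 Mb, against 124 in 2026 Mb of the other chromosomes, or 1.28 times as many per Mb (0.901 to 1.796). The long arm of chromosome 1 held 6.69 times as many at 13 to 24, 24.5 times at 51 to 99, and 6.28 times at 100 and over (4.30 to 9.002, 41 peaks). Its short arm lay between 0.977 and 1.34 times in all 5 classes. Of the 100 SETD7-only peaks on the 5 chromosomes that scored 100 or more, 29 lay within 5 Mb of a gap (29%, 21.0 to 38.5), as did 6.63% of all 14682 (6.24 to 7.04).

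**Figure D4:**
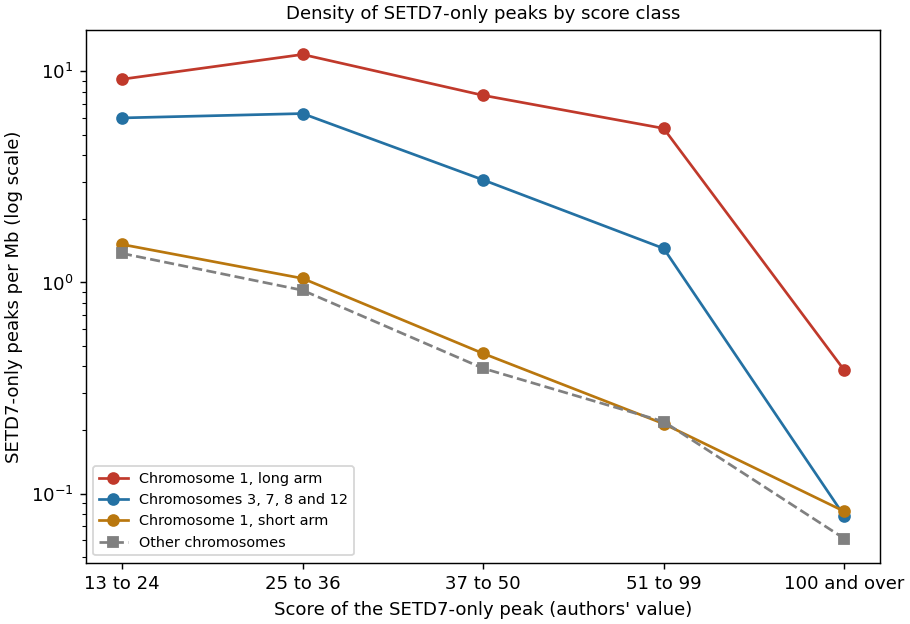
SETD7-only peaks per Mb (log scale) in 5 classes of the authors' score, for the long arm of chromosome 1, chromosomes 3, 7, 8 and 12, the short arm of chromosome 1, and the other chromosomes. Chromosomes 3, 7, 8 and 12 lie well above the other chromosomes in the 4 classes under 100 and at 1.28 times their density at 100 and over.

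The highest scores were at few places. The leading peak was on chromosome 8 from 43092770 to 43093150 (score 1176), 0.746 Mb before the gap, and the third, from 43094385 to 43095317 (score 667), lay next to it. On chromosome 12 the peaks from 28917432 to 28917925 (score 739) and from 28913939 to 28914298 (score 320) were neighbours. The peak that scored 320 had a FOXA1 peak of every list within 1 kb, the nearest at 56 bp, so it was close to a FOXA1 site in both lines. The peak at chromosome 12 from 133141168 to 133141416 (score 544) had shSETD7 and shCTL FOXA1 peaks within 1 kb. The others of the 10 highest scored 286 to 492 and had no FOXA1 peak within 3 kb. They were at chromosome 8 from 65362631 to 65362876, chromosome 12 from 19153494 to 19153742 and from 41638323 to 41638787, chromosome 1 from 192452174 to 192452469 and chromosome 3 from 140390432 to 140390673. No list of artefact-prone regions was applied here, and whether these sites belong to one was not tested.

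Most SETD7-only peaks were narrow. The median width was 318 bp (quartiles 270 and 411), against 306 bp (266 and 380) on the other chromosomes and 388 bp (294 and 544) for SETD7 peaks with a FOXA1 overlap on the same 5 chromosomes. The narrowest were 241 bp, which was the floor of the list, and 41.8% were under 300 bp (41.0 to 42.6), against 47.2% on the other chromosomes (46.0 to 48.5). Median widths by arm ran only from 308 to 320.5 bp. The 3 widest were 1770 bp at chromosome 1 from 196212685 to 196214454, 1496 bp at chromosome 1 from 153055923 to 153057418, and 1373 bp at chromosome 8 from 31346484 to 31347856, with scores of 54, 46 and 37. Together the 14682 peaks covered 5.34 Mb. Width thus varied little between the arms whose density differed 10.5 times.

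Spacing changed with density, as it must in part. From the end of a SETD7-only peak to the start of the next in the same arm the median was 27.6 kb (quartiles 11.1 and 64.5), against 148 kb (37.8 and 391) on the other chromosomes, and it was 49.6 kb over the higher-scoring 50% of the SETD7-only peaks of the 5 chromosomes. It was 15.1 kb on the long arm of chromosome 1 and 151 kb on its short arm, and between 29.8 and 35.0 kb on the 8 arms of chromosomes 3, 7, 8 and 12. Another SETD7-only peak lay within 10 kb of 39.1% of them (38.4 to 39.9), against 18.0% on the other chromosomes (17.1 to 19.0). This share was 58.9% on the long arm of chromosome 1, 21.1% on its short arm and 31.8% to 36.1% on the 8 arms. Within 1 kb the shares were 4.77% on the 5 chromosomes and 3.03% on the others. The smallest spacing was 243 bp. Shares within a fixed distance rise with density too, so they do not compare clustering. As a percent of the mean spacing, the median was 44.1% on the other chromosomes and 47.8% over the 5 chromosomes. By arm it was 50.1% on the short arm of chromosome 1, 53.0% on its long arm and 53.1% to 61.9% on the 8 arms. A lower percent means more uneven spacing, and the denser arms were not the lower ones.

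**Figure D5:**
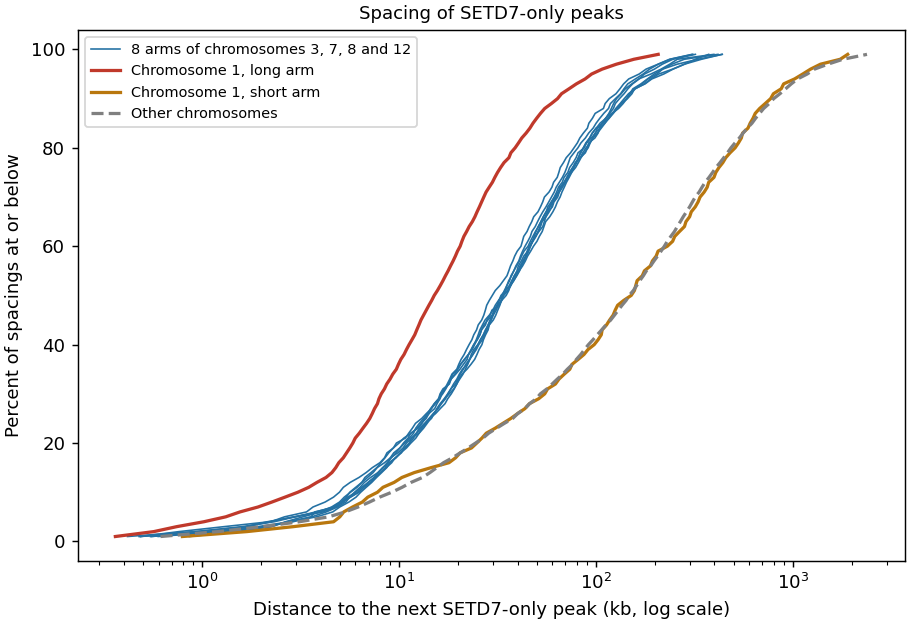
Cumulative share of spacings between neighbouring SETD7-only peaks (percent, y axis) against the distance in kb (log x axis), for the long arm of chromosome 1, each of the 8 arms of chromosomes 3, 7, 8 and 12, the short arm of chromosome 1 and the other chromosomes together. The 8 arms nearly coincide, with medians of 29.8 to 35.0 kb, and the short arm of chromosome 1 follows the curve of the other chromosomes.

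The tightest run of 10 SETD7-only peaks spanned 37.6 kb on chromosome 1 (from 180412563 to 180450207), 63.6 kb on chromosome 8 (from 86739294 to 86802930), 78.3 kb on chromosome 7 (from 81340990 to 81419249), 99.1 kb on chromosome 3 (from 75750362 to 75849418) and 103 kb on chromosome 12 (from 14542618 to 14645452). The median score in these runs was 25 on chromosome 1 and 43 to 66 on the other 4. The run on chromosome 3 also held 8 SETD7 peaks that overlapped FOXA1 peaks, for 18 SETD7 peaks in all, and the run on chromosome 8 held 18 as well.

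Distance to FOXA1 was set in part by the rule. Of the SETD7-only peaks 16.6% had a FOXA1 peak of any list within 1 kb (15.98 to 17.2), against 14.4% on the other chromosomes and 15.9% of all SETD7-only peaks. This share was close to that background, and the 22Rv1 FOXA1 lists had 39.0% to 42.3% of their peaks on the 5 chromosomes, against 31.89% to 32.02% of the LNCaP lists. No FOXA1 peak lay within 10 kb of 19.5% (18.9 to 20.2), against 27.4% on the other chromosomes (26.3 to 28.5). The nearest FOXA1 peak of any list was at a median of 4.13 kb, against 5.04 kb on the other chromosomes. SETD7-only peaks with a FOXA1 peak within 1 kb had the same median score, 28, as those without, and median widths of 321 and 318 bp. By list, the median distance was 9.66 kb to shSETD7, 9.02 kb to shCTL and 10.5 kb to vehicle peaks of 22Rv1, and 11.8 kb to DMSO peaks of LNCaP. On the other chromosomes the values were 14.1, 11.3, 14.6 and 10.8 kb, so of these lists the LNCaP one was not nearer on the 5 chromosomes.

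The rule left out 3133 SETD7 peaks of these chromosomes, mostly through 1 list. The shSETD7 list overlapped 2735 of them, and 1755 were left out by that list alone. The shCTL list alone left out 189, the vehicle list alone 70, and each LNCaP list alone between 8 and 11. At the limit of the rule, 31 SETD7-only peaks lay under 10 bp from a FOXA1 peak and 25 of the peaks left out overlapped one by under 10 bp. The nearest inside, at 0 bp, were at chromosome 7 from 78792610 to 78792857 (score 43), chromosome 8 from 97826809 to 97827358 (score 37) and chromosome 3 from 19596554 to 19597075 (score 29). The nearest outside, with overlaps of 1, 2 and 2 bp, were at chromosome 1 from 230611466 to 230611904 (score 30), chromosome 12 from 83978007 to 83978303 (score 31) and chromosome 7 from 145519380 to 145519627 (score 31). All 3 of these outside peaks overlapped an shSETD7 peak.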

How the data were processed

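Per the labels' protocols, chromatin was fixed with 1% formaldehyde before ChIP-seq for SETD7 (1 library) and FOXA1 (6 libraries). The submitters' processing notes name MACS2 2.1.4, SAMtools 1.9, BWA 0.7.17-r1188, FastQC 0.11.9 and build hg19; the sources used here give neither settings, nor the peak threshold, nor whether an input was used. The authors deposited 1 peak list per library with a score per peak of unstated definition; it was compared only among peaks of the SETD7 list. In the vehicle FOXA1 list the peak names (65461) contain siNTC, a tag absent from the labels. The lists hold no read depth, on which the number of peaks depends, so it is unknown.

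Groups came from the sample titles. The members, the chromosomes and the measures were chosen with earlier results of these data known. Peaks were shared at 1 bp of overlap, and the code gave the same 20687 SETD7-only peaks as bedtools 2.31.1 and recovered placed overlaps when tested on simulated data. Density is per Mb between the first and last peak of any list in an arm, or in a window without its gap. Window values are log2 of peaks with a pseudocount of 1. Intervals are 95% Wilson for shares and exact for ratios. The sites named were every arm, the 5 densest and 5 sparsest 10 Mb windows, the 10 highest scores, the 3 widest, the tightest run of 10 on each chromosome and the 3 nearest on each side of the overlap limit. The 2 Mb windows, the sparsest windows outside the short arm of chromosome 1, the member-free stretches and the score classes were chosen after the values were seen. The code ran on Python 3.11.15 with scipy 1.17.1, pandas 2.3.3 and numpy 2.4.6, and figures were drawn with matplotlib 3.10.9. Alternatives tried changed the overlap rule, the score minimum, the window size or the lists, or left out a chromosome.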

Additional observations from a re-analysis of the deposited data

How the results depend on the processing

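Of 70 alternatives over 12 results, 50 stayed close to the reported value, 20 moved it and 1 of the close ones crossed equality: the arm ratio of chromosome 7 (0.9495, interval spanning 1) was 1.01 in the higher-scoring 50% of SETD7-only peaks. Close means within 1.5 times for a count, inside the interval for shares and arm ratios, within 0.1 for r and within 10% for medians. The number of SETD7-only peaks (14682) came to 8482 in the higher-scoring 50% of every list. The SETD7-only share (82.4%) was 87.5% when sharing meant midpoints within 200 bp, 90.2% when it meant reciprocal 50% overlap, 68.8% without a FOXA1 peak within 1 kb, 92.3% in the higher-scoring 50% and 95.6% with the vehicle list alone. The arm ratio of chromosome 1 (10.5) was 15.9 in the higher-scoring 50% of SETD7-only peaks and 7.59 with peaks closer than 10 kb counted as 1. The r over windows (0.69) was 0.56 with 5 Mb windows, 0.44 with shCTL and 0.59 with shSETD7 in place of vehicle, 0.44 without the short arm of chromosome 1, and 0.21 to 0.73 leaving out each chromosome, lowest without chromosome 1. With chromosome means subtracted (0.69) it was 0.55 with 5 Mb windows, 0.51 with shCTL, 0.19 with arm means subtracted, 0.25 without the short arm of chromosome 1, and 0.24 to 0.73 leaving out each chromosome, again lowest without chromosome 1. Median spacing (27.6 kb) was 34.1 kb without a FOXA1 peak within 1 kb and 49.6 kb in the higher-scoring 50%. Looser or stricter rules and shorter lists change shares and spacing by construction, and for the other results the cause was not tested. The alternatives with all SETD7 peaks, arm means and the short arm of chromosome 1 left out were chosen after seeing the data. No paired analysis was possible because each group has 1 library. Depth is unknown, which limits every density.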
